A study of Mus musculus with 55 samples.

Results

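IL-4457 is a recombinant inbred line of the Collaborative Cross (CC), a mouse panel bred from several inbred founder strains so that mice of the same line are close to genetically identical. It was represented by 2 of the 55 mice, which are all the mice whose strain label reads IL-4457, and was compared with the 53 mice of the other 28 lines. The study sequenced liver mRNA of untreated male CC mice, kept on rodent chow and tap water at Tel-Aviv University, to ask how inherited variation acts on drug disposition genes. Both IL-4457 mice were 8.6 weeks old, and they weighed 35.0 and 30.7 g. The other mice were 8.0 to 11.9 weeks old and weighed 12.8 to 38.0 g. Of the 29 lines, 16 had 2 mice, 5 had 3 mice and 8 had 1 mouse. No other line had the same age as IL-4457, and nothing in the labels says whether its mice came from separate litters or cages. The genotype of the line and whatever its mice shared in rearing or handling therefore cannot be told apart.

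Hepatocytes, the main cells of the liver, make bile acids, burn and build fatty acids and detoxify drugs, under transcription factors and nuclear receptors such as Hnf4a, Ppara and Nr0b2. Part of this work is zoned along the liver lobule, and Wnt signalling from the central vein keeps the genes of the pericentral zone switched on. Injured or growing hepatocytes are known to raise keratins and other cytoskeletal genes, factors of the AP-1 family, ribosome assembly and, when amino acids or protein folding fall short, the genes controlled by Atf4.

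The depth, taken as the sum of the estimated fragments of a mouse over all genes, was 29.5 and 31.7 M (megafragments) in the IL-4457 mice and 20.5 to 34 M in the others, with a median of 27.7 M. The levels of the IL-4457 mice correlated with each other across the genes tested at a Spearman rho of 0.990, and the median correlation with mice of other lines was 0.894, against 0.924 between mice of the other lines. By that median IL-4457 was the line at rank 2 from the lowest. The mouse of another line most like each IL-4457 mouse was the only IL-4141 mouse (rho 0.942 and 0.934), whose sample number, 4264, comes just before 4265 and 4266 of the IL-4457 mice. What these numbers stand for is not given in the sources used here. Among the other lines, an IL-1052 mouse correlated better with an IL-2750 mouse (0.977) than with its line mate (0.931), and Xist, an RNA made by the inactive X of females, reached 39.5 FPKM in an IL-785 mouse although all mice are male. Counts without these lines are given with the results that change with them.

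IL-4457 was the heaviest line. Its mean weight was 32.9 ± 3.04 g (SD, n = 2 mice), against 22.2 ± 4.02 g (SD) over the means of the 28 other lines, a difference of 10.6 g. The line was picked for its weight, so this is a description and no test of it is given. The next line, IL-2156, averaged 30.3 g and held the only mouse heavier than the IL-4457 mice, at 38.0 g. Both IL-4457 mice were above every other line mean.

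Levels are given as FPKM, fragments scaled to the length of the transcript and to the mapped fragments of the library, so that genes can be compared per length. Of 11284 genes with at least 2 FPKM in some mouse, 382 (3.39%) had both IL-4457 mice above the highest of the 53 other mice and 435 (3.86%) had both below the lowest. These 817 genes are described below, and their position outside the range is the way they were chosen and no test. Of the 382 genes above, 363 were protein coding, 43 passed the filter on low levels only because of the IL-4457 mice, and in 13 every other mouse was under 1 FPKM. Genes that passed the filter only through IL-4457 had to differ, so no p is given for those named below, which are Sprr1a, Spsb1, Actg-ps1, Psat1, Mthfd2, Epcam, Fosl1, Dusp4, Btc, Tgfb3 and Inhbb, and list counts are also given without them. On FPKM + 0.5, 87 of the genes above and 22 of the genes below lay outside the range by at least 1.5-fold. The edge of the range was narrow in places. Mphosph10 was just outside with 8.79 and 10.8 FPKM against a highest other mouse of 8.78 FPKM, and Stx6 just inside with 3.54 and 3.72 FPKM against 3.54 FPKM, while at the lower edge Sod2 was just outside (30.41 and 30.04 FPKM, lowest other mouse 30.44 FPKM) and Stat5b just inside (5.31 and 5.34 FPKM, lowest 5.34 FPKM).

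The spread among lines was used for a test that takes the line as the unit. With edgeR's quasi-likelihood test on counts summed over the mice of a line (Benjamini-Hochberg adjustment over all genes), 384 genes (3.40%) were higher and 195 genes (1.73%) were lower in IL-4457 at an adjusted p under 0.05, and the median log2 fold change of all genes tested was -0.08. IL-4457 enters this test as 1 line and is assumed to vary like the other 28. These counts hold genes that passed the filter only through IL-4457. With the filter taken on the other lines alone, 331 of 11228 genes were higher and 183 lower, and 339 lay above the range. The counts of lists below are to be read beside the shares of all genes, 3.40% higher and 1.73% lower. Of the 382 genes above the range, 292 passed as higher and 90 did not pass. Of the 435 genes below the range, 158 passed as lower and 277 did not, so that for most genes below the range a difference beyond the spread among lines was not shown. A further 92 higher and 37 lower genes lay inside the range of the other mice. The median log2 fold change was 1.39 among the genes above and -0.99 among the genes below. The number of lower genes rested on 2 lines and 1 mouse: it was 320 without the IL-4141 mouse, 293 without the IL-2126 mouse and 308 without IL-4457 mouse 1. Without IL-785 the test gave 373 higher and 180 lower genes, and without IL-1052 and IL-2750 it gave 332 and 156.

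The largest gap above the range was that of Sprr1a (ENSMUSG00000050359), a small proline-rich protein of the cornified envelope of squamous epithelia. It stood at 16.4 and 17.3 FPKM in the IL-4457 mice, while the other mice ranged from 0 to 0.62 FPKM with a median of 0, and 30 of them were listed at 0. The log2 fold change was 8.45 ± 0.91 (SE; edgeR), a size that rests on few counts in the other lines. Spsb1, an adaptor of ubiquitin ligases on chromosome 4 (chr4:149270392-149329152, NCBI build 37), measured 13 and 14.9 FPKM against 0.07 to 1.23 FPKM (median 0.22) and had a log2 fold change of 5.88 ± 0.47. Ppl, periplakin, a linker between keratin filaments and the cell membrane, measured 34.2 and 36.7 FPKM against 0.08 to 11.2 FPKM (median 1.16), a log2 fold change of 4.28 ± 0.81 (edgeR adjusted p = 0.00127). That the groups do not overlap in these genes follows from the way they were chosen. Itpkc, an inositol trisphosphate kinase, was called with 14.4 and 13.5 FPKM against 0.91 to 3.82 FPKM. Others of the 12 with the largest gap were Srxn1 and Bach1, described below, the little-known 1700017B05Rik and Fam124a, the noncoding transcripts RP24-323I5.2 and Gm12505, and Actg-ps1, a pseudogene whose reads can be shared with actin genes and whose level is therefore uncertain. Their log2 fold changes were between 2.91 and 5.74, and all but Actg-ps1, for which no p is given, passed the test. Exons of some named genes overlap a gene on the other strand (Spsb1, Tnfrsf12a, Fosl1, Yars, Tsr1, Dnaja4, Dnaja1, Keap1, Axin2, Tbx3, Prox1 and Abcb11), and since the use of strand in the counting is not stated, reads of the overlapping genes cannot be told apart.

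**Figure D1:**
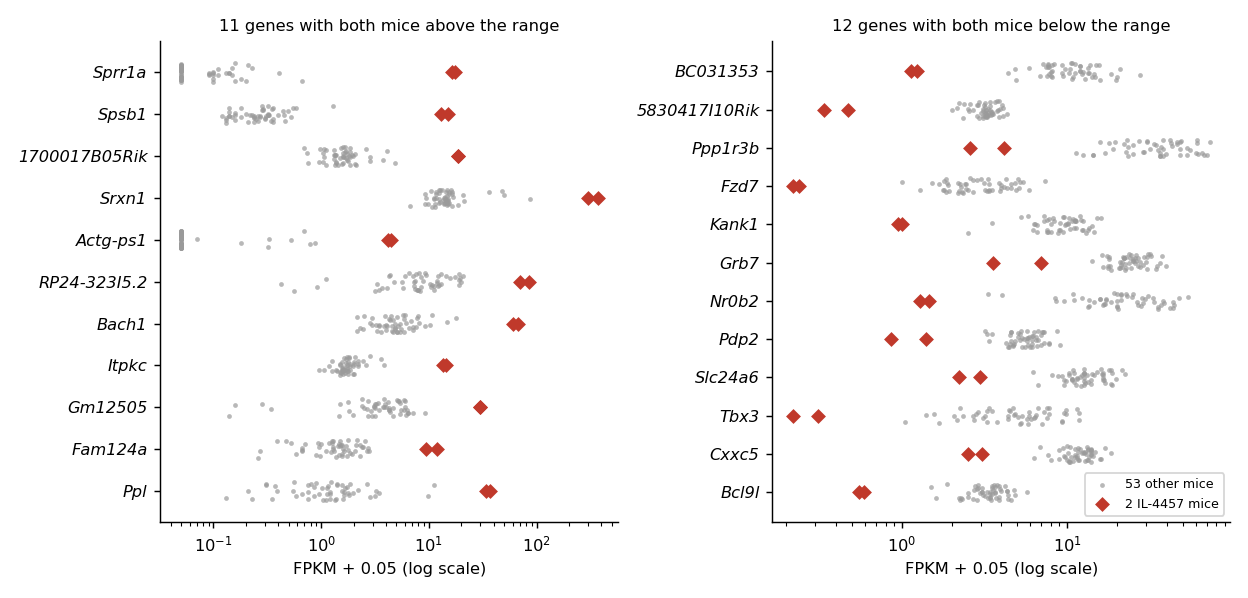
FPKM + 0.05 on a log axis in each of the 53 other mice (grey dots) and in the 2 IL-4457 mice (red diamonds), for 11 of the 12 genes with the largest gap above the range (left) and the 12 with the largest gap below it (right). By the choice of genes the red diamonds stand clear of every grey dot in each, as Sprr1a shows with 16.4 and 17.3 FPKM against at most 0.62 FPKM.

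Keratin and other cytoskeletal genes were read as a group. In a list of keratin, cytoskeleton and injury genes, 12 of 30 genes tested were higher, against 3.40% of all genes, 0 were lower, and the median log2 fold change was 1.38, against -0.08 for all genes. Without Epcam and Sprr1a, which passed the filter only through IL-4457, 10 of 28 were higher and the median was 1.27. Krt8 and Krt18, the keratin pair of simple epithelia such as hepatocytes, were members of the list. Krt8 stood at 450 and 442 FPKM, while the other mice ranged from 49.1 to 189 FPKM with a median of 85.0 FPKM (log2 fold change 2.36 ± 0.31, edgeR adjusted p = 5.99e-06). Krt18 stood at 426 and 376 FPKM against 54.1 to 186 FPKM with a median of 90.0 FPKM (2.14 ± 0.33, adjusted p = 0.000115). Both keratins belong to the genes chosen for lying above the range of the 53 other mice, so that the groups cannot overlap in them. S100a10, the partner of annexin A2 at the cell membrane, measured 423 and 481 FPKM against 49.1 to 159 FPKM, and Tubb6, a beta-tubulin, 31.5 and 38.5 FPKM against 0.87 to 14.8 FPKM. Tnfrsf12a, the receptor of the cytokine Tweak, measured 108 and 120 FPKM against 1.76 to 58.3 FPKM with a median of 3.98 FPKM (log2 fold change 3.98 ± 0.89, adjusted p = 0.00605). Thbs1, thrombospondin 1 of the matrix, measured 7.52 and 9.83 FPKM against 0.03 to 2.39 FPKM (4.42 ± 0.92, adjusted p = 0.00331), and Epcam, an adhesion molecule of bile duct cells and hepatocyte progenitors, 4.88 and 6.03 FPKM against 0.09 to 1.53 FPKM (3.82 ± 0.46). Tuba1a, S100a11, Vim and Anxa2 were also higher, the last pair with 1 IL-4457 mouse inside the range of the others. The actin genes Actb (302 and 279 FPKM against 85.5 to 309 FPKM) and Actg1 (383 and 327 FPKM against 24.2 to 390 FPKM) did not pass. Reads of near-identical tubulin, keratin and actin copies may be split between them, so that the values of single members carry that uncertainty.

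Markers of other cell types were read beside these genes. The 3 bile duct markers tested summed to 124 and 117 FPKM in the IL-4457 mice against 6.26 to 207 FPKM with a median of 26.3 FPKM, and Epcam, which passed the filter only through IL-4457, was the marker called. Krt19, a defining keratin of bile duct cells, was at 0.84 and 1.87 FPKM against 0.05 to 6.32 FPKM and did not pass. Most of the sum came from the remaining marker, which did not pass either. All 3 had a positive log2 fold change, with a median of 1.79, and 2 were higher at an unadjusted p under 0.05 (edgeR). Without Epcam, 0 of 2 were called and the median was 1.46. The 6 endothelial markers summed to 53.1 and 52.9 FPKM against 11.7 to 68.8 FPKM, and 1 of them was higher, Lyve1 of sinusoidal and lymphatic endothelium, named after its values were seen, with 7.14 and 9.73 FPKM against 0.01 to 5.60 FPKM (edgeR adjusted p = 0.0387). No endothelial marker was called with DESeq2, without IL-1052 and IL-2750, without IL-4457 mouse 2 or without the lines of 1 mouse. The 8 hepatocyte markers summed to 61175 and 53999 FPKM, inside the 18785 to 70793 FPKM of the others, and none of them was called by edgeR, with 1 under an unadjusted p of 0.05 and 1 called by DESeq2. Markers of Kupffer cells, stellate cells and lymphocytes summed to values inside the range of the other mice, and none was called by edgeR or DESeq2 or fell under an unadjusted p of 0.05. The part of other cell types in the differences was not tested. In bulk tissue fewer cells of a type and less RNA per cell cannot be told apart.

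Among genes that respond to or restrain Erk signalling, with the ligands and receptors of the Egfr family, 5 of 18 tested were higher and 1 was lower, with a median log2 fold change of 1.26. Over all genes tested, 3.40% were higher and 1.73% lower. Without Fosl1, Dusp4 and Btc, which passed the filter only through IL-4457, 2 of 15 were higher and the median was 1.14. DESeq2 called 2 of the 18 higher and gave Dusp5 no adjusted p. Fosl1, a member of AP-1 that is silent in most livers, was listed at 0 in 52 of the 53 other mice and at 0.07 FPKM in the remaining one, from IL-2126, but measured 0.81 and 2.1 FPKM in IL-4457. No fold is given for it. Its edgeR call was lost with DESeq2 and without IL-2126. Dusp5, a nuclear phosphatase of Erk, measured 21.4 and 21.6 FPKM against 0.04 to 8.45 FPKM with a median of 0.19 FPKM (log2 fold change 4.77 ± 1.21, edgeR adjusted p = 0.0171). Dusp4, another Erk phosphatase, measured 2.94 and 1.72 FPKM against 0 to 0.81 FPKM. Spred1, an inhibitor of the step from Ras to Raf, was higher, with 13.1 and 18.6 FPKM against 0.76 to 4.73 FPKM (2.74 ± 0.35, adjusted p = 4.36e-06). Of the ligands, Btc, betacellulin, measured 5.82 and 4.44 FPKM against 0.21 to 1.75 FPKM (log2 fold change 2.87 ± 0.47). Of the receptors, Erbb3 was lower, at 3.86 and 2.51 FPKM against 5.86 to 34.1 FPKM with a median of 19.4 FPKM (-2.52 ± 0.58, adjusted p = 0.0079), while Egfr itself measured 98.5 and 111 FPKM, inside the 36.7 to 161 FPKM of the others. Grb7, an adaptor that binds receptors of this family, was one of the 12 genes farthest below the range, with 6.87 and 3.53 FPKM against 14.2 to 39.9 FPKM (-2.15 ± 0.34, adjusted p = 0.000157).

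Immediate early genes, which are known to rise within minutes of handling or injury, were read as part of a list of stress genes. Of 20 tested, 1 passed as higher, the endoplasmic reticulum chaperone Hspa5, although the median log2 fold change was 1.54. Fos measured 1.52 and 1.90 FPKM and Jun 5.57 and 4.28 FPKM, both far inside ranges that reached 93.5 and 93.3 FPKM. Atf3, a stress-induced factor, measured 36.8 and 48.5 FPKM against 0.13 to 37.5 FPKM, and Cdkn1a, the cell cycle inhibitor p21, lay above the range with 28.4 and 23.0 FPKM against 0.19 to 16.3 FPKM (log2 fold change 3.18 ± 1.02), but with edgeR adjusted p-values of 0.177 and 0.0661 neither passed. These genes varied widely among the other lines, and 4 of the 20 were called without the IL-2126 mouse, 2 without the IL-4141 mouse and 6 without the lines of 1 mouse.

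In a list of 19 tested genes of Atf4 and the amino acid response, 5 were higher, against 3.40% of all genes, and 0 were lower, with a median log2 fold change of 0.32. Without Psat1 and Mthfd2, which passed the filter only through IL-4457, 3 of 17 were higher and the median was 0.23. Psat1 and Psph, the last enzymes of serine synthesis, measured 4.27 and 4.73 FPKM against 0.08 to 1.70 FPKM (log2 fold change 4.24 ± 0.54) and 17.5 and 19.0 FPKM against 2.00 to 7.6 FPKM (2.23 ± 0.34, edgeR adjusted p = 8.32e-05). Chac1, which degrades glutathione, measured 18.5 and 21.9 FPKM against 0.12 to 7.74 FPKM with a median of 1.23 FPKM (3.72 ± 0.73, adjusted p = 0.00177). Mthfd2, a mitochondrial folate enzyme that is low in adult liver, measured 5.41 and 5.25 FPKM against 0.23 to 1.93 FPKM (2.85 ± 0.51), and Sesn2, a leucine sensor of the mTorc1 pathway, 4.67 and 4.51 FPKM against 0.79 to 3.47 FPKM (1.52 ± 0.33, adjusted p = 0.00509). These 5 were also the genes of the 19 with both mice above every other mouse, against 3.39% of all genes tested. Being called and lying above the range mostly go together, as 292 of the 384 genes called higher lay above it. Other members lay inside the range. Atf4 itself was at 68.2 and 84.5 FPKM within 39.9 to 174 FPKM, Asns at 4.30 and 3.21 FPKM within 0.10 to 22.4 FPKM, and Trib3 at 3.25 and 4.05 FPKM within 1.06 to 20.6 FPKM, none of which passed.

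Of 20 cytosolic aminoacyl-tRNA synthetases tested, which load amino acids onto tRNAs, 6 were higher and 0 lower and 14 did not pass, with a median log2 fold change of 0.38. The share of all genes called higher was 3.40%. Nars, for asparagine, measured 68.5 and 71.5 FPKM against 27.6 to 47.6 FPKM with a median of 37.5 FPKM (log2 fold change 0.98 ± 0.15, edgeR adjusted p = 6.94e-05). Sars, for serine, measured 35.5 and 37.2 FPKM against 16.5 to 29.3 FPKM (0.79 ± 0.15, adjusted p = 0.00109). Yars, Gars and Rars were also above every other mouse and called higher, and Iars was called higher with 1 mouse inside the range. The adjusted p of Rars was 0.0292, and it was lost under 5 alternatives.

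Of 59 ribosome assembly factors tested, 32 were higher, against 3.40% of all genes, and 0 lower, 33 had both mice above every other mouse, against 3.39% of all genes, and the median log2 fold change was 0.88. The number of higher factors was 21 with limma, 22 without IL-4457 mouse 2 and 26 without IL-1052 and IL-2750. This list, like the other lists of Atf4, Nrf2, keratin, Erk, Wnt, transcription factor, synthetase, chaperone and Tgfb genes, was assembled after the levels of single genes had been seen, so its counts are a description and not independent evidence. Nop58, a core protein of box C/D small nucleolar particles, measured 27.1 and 35.5 FPKM against 3.03 to 21.2 FPKM with a median of 6.31 FPKM (log2 fold change 2.12 ± 0.46, edgeR adjusted p = 0.00475). Gar1, of box H/ACA particles, measured 15.0 and 18.4 FPKM against 2.27 to 13.7 FPKM (1.73 ± 0.37, adjusted p = 0.0044), Tsr1, of small subunit maturation, 15.9 and 17.3 FPKM against 3.38 to 12.5 FPKM, and Rrp12, of ribosomal export, 3.34 and 5.35 FPKM against 0.78 to 2.70 FPKM (1.65 ± 0.40, adjusted p = 0.0106). The highest other mouse for Nop58 and Gar1 was the IL-2126 mouse, and for Tsr1 the IL-4141 mouse. The call of Rrp12 was lost without IL-4457 mouse 2 (adjusted p = 0.0898).

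Chaperones of the cytosol and endoplasmic reticulum had 8 higher genes and 0 lower among 40 tested, with 11 above the range and a median log2 fold change of 0.78. The shares of all genes were 3.40% higher and 3.39% above the range. Hspa5, the main Hsp70 of the endoplasmic reticulum, measured 757 and 781 FPKM against 140 to 597 FPKM with a median of 262 FPKM (log2 fold change 1.47 ± 0.38, edgeR adjusted p = 0.0183). Hspb8, a small heat shock protein, measured 320 and 422 FPKM against 39.9 to 318 FPKM (2.09 ± 0.53, adjusted p = 0.0158), and Dnaja4, a cochaperone, 13.8 and 9.91 FPKM against 0.38 to 6.52 FPKM (2.85 ± 0.68, adjusted p = 0.0111). Serpinh1, the collagen chaperone, was higher as well, a call lost under 4 alternatives, DESeq2 among them. Dnaja1 (613 and 604 FPKM, others 51.1 to 458 FPKM) and Hsph1 (146 and 155 FPKM, others 3.74 to 136 FPKM) were above the range without passing. The IL-2126 mouse held the highest other value of 8 of the 11 genes above the range, and without it 17 chaperones were called. The count was 12 without the IL-4141 mouse and 5 without IL-4457 mouse 2, 19 without the lines of 1 mouse, 6 without IL-1052 and IL-2750, and 4 with limma. Xbp1, a factor of the unfolded protein response and of secretory cells, was also higher, with 252 and 339 FPKM against 48.4 to 160 FPKM (1.77 ± 0.31, adjusted p = 0.000474).

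Srxn1, sulfiredoxin, which repairs oxidised peroxiredoxins, was the most abundant of the 12 genes with the largest gap above the range. It measured 302 and 368 FPKM, while the other mice ranged from 6.60 to 85.8 FPKM with a median of 14.0 FPKM (log2 fold change 4.30 ± 0.51, edgeR adjusted p = 2.29e-06). Bach1, a repressor that competes with Nrf2 for antioxidant response elements, measured 60.4 and 66.8 FPKM against 2.08 to 17.9 FPKM with a median of 4.82 FPKM (3.54 ± 0.47, adjusted p = 9.42e-06). Other targets of Nrf2 were read beside them. Of 32 genes tested these 2 were higher and 0 were lower (2 under an unadjusted p of 0.05, 1 called by DESeq2 and 1 by edgeR without the IL-4141 mouse), with a median log2 fold change of -0.10. Keap1, the inhibitor of Nrf2, was below the range with 6.86 and 7.76 FPKM against a lowest of 7.87 FPKM and did not pass (adjusted p = 0.251).

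The windows of 250 bases before the start of 3 of the genes above the range are printed because they hold motifs of factors named above (RefSeq, build GRCm38.p6, matched by gene symbol, read 5′ to 3′ on the gene's strand). Capitals mark the motif. Chac1 (chr2:119350992-119351241, plus strand) is shown with the core of the amino acid response element, TGATGNAA on either strand, which matches at 1 place on the reverse strand, 193 bases before the start. Srxn1 (chr2:152105274-152105523, plus strand) and Sprr1a (chr3:92485882-92486131, minus strand) are shown with the AP-1 element, TGANTCA, which reads the same on both strands and matches at 2 places in each, 102 and 45 bases before the start of Srxn1 and 146 and 116 bases before that of Sprr1a.
Chac1: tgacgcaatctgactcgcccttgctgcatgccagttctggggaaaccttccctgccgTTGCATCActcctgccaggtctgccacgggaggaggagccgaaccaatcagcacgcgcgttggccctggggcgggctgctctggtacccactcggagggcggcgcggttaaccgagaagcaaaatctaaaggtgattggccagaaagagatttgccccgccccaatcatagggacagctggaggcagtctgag
Srxn1: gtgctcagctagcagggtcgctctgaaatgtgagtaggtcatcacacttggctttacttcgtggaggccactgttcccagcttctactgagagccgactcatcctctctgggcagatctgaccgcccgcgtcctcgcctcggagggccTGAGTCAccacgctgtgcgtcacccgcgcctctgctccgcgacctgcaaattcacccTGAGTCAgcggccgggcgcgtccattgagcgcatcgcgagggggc
Sprr1a: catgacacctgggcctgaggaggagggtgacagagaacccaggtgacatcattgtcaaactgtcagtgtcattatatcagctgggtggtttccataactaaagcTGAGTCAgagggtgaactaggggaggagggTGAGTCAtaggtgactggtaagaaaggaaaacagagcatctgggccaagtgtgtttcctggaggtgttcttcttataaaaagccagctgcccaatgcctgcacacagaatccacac
A match is a description of the letters and not a site in use. Of the genes tested, 7537 had a promoter in the table, among them 271 of the genes above and 299 of the genes below the range. TGATGNAA was found in 10 of the promoters above (3.69%), 4 below (1.34%), 155 of all genes tested (2.06%) and 3.53% of all 27025 promoters in the table. TGANTCA was found in 5.90% of those above, 5.02% below, 4.50% of all tested and 6.87% of all promoters. The antioxidant response core TGACNNNGC was found in 14.4%, 12.4%, 12.3% and 10.1% of the same sets, and the Tcf core CTTTGA in 7.38%, 11%, 11.3% and 14.0%. Each motif was searched on both strands. Among the genes above the range the share with TGATGNAA was higher and that with CTTTGA lower than among all genes tested, on few promoters, and no test was made of it.

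Genes of Tgfb and activin signalling had 7 higher and 1 lower among 22 tested, against 3.40% and 1.73% of all genes, with a median log2 fold change of 0.41. Without Tgfb3 and Inhbb, which passed the filter only through IL-4457, 5 of 20 were higher and the median was 0.15. DESeq2 called 8 of the 22 higher and 3 lower, and without the IL-4141 mouse edgeR called 2 lower. Of the ligands, Tgfb3 measured 2.84 and 2.79 FPKM against 0.06 to 0.70 FPKM with a median of 0.19 FPKM (log2 fold change 3.65 ± 0.48), and Inhbb, a subunit of activin B, 1.34 and 4.43 FPKM against 0.03 to 1.18 FPKM (3.70 ± 0.69). Of the receptors, Tgfbr2 measured 7.15 and 6.56 FPKM against 0.49 to 4.02 FPKM (2.26 ± 0.56, edgeR adjusted p = 0.0139), Tgfbr1 was higher too, and Acvr1, a type I receptor of the family, was lower with 1.79 and 1.61 FPKM against 1.83 to 5.20 FPKM (-1.21 ± 0.31, adjusted p = 0.0181). Inside the cell, the signal carrier Smad3 and the repressors Skil and Tgif1 were higher, Tgif1 with 19.2 and 16.0 FPKM against 3.04 to 10.2 FPKM (1.77 ± 0.25, adjusted p = 3.15e-05). Of the 22 genes, 7 lay above and 1 below the range of the other mice, against 3.39% and 3.86% of all genes tested.

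Of 17 genes tested of the Wnt pathway and pericentral zonation, 4 were lower, against 1.73% of all genes, 13 did not pass and 0 were higher (0 also at an unadjusted p of 0.05 and by DESeq2), 5 had both mice below every other mouse, and none had a positive log2 fold change, with a median of -1.02. Over all genes tested, 3.86% lay below the range and 4907 of 11284 had a positive log2 fold change. Axin2, the feedback inhibitor often read as a reporter of the pathway, measured 0.20 and 0.03 FPKM against 0.56 to 2.73 FPKM with a median of 1.51 FPKM (log2 fold change -4.38 ± 0.82, edgeR adjusted p = 0.00109). Tbx3, a transcription factor downstream of the pathway in liver (chr5:120120678-120134733, NCBI build 37), measured 0.26 and 0.17 FPKM against 0.99 to 11.8 FPKM with a median of 5.03 FPKM (-4.59 ± 1.05, adjusted p = 0.00741). Fzd7, a Wnt receptor (chr1:59538991-59543791), measured 0.17 and 0.19 FPKM against 0.96 to 7.35 FPKM (-4.01 ± 0.88, adjusted p = 0.005), and Bcl9l, a coactivator of beta-catenin, 0.54 and 0.50 FPKM against 1.46 to 5.64 FPKM (-2.60 ± 0.49, adjusted p = 0.00106). The lowest other mouse was the IL-4141 mouse in all 4. Reads behind them were few: Axin2 had 11 and 4 fragments and Tbx3 23 and 22 in the IL-4457 mice. Ctnnb1, beta-catenin itself, was at 49.3 and 47.7 FPKM within 42.8 to 72.3 FPKM. The pericentral enzymes Glul (134 and 142 FPKM within 56.6 to 501 FPKM), Cyp2e1 (1448.5 and 1682.5 FPKM within 974 to 5645 FPKM) and Oat (116 and 128 FPKM within 32.2 to 741 FPKM) did not pass, with log2 fold changes of -1.05, -0.96 and -0.98.

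Of 23 hepatocyte transcription factors tested, 5 were lower and 1, Xbp1, was higher, with 7 below the range and a median log2 fold change of -0.51. The shares of all genes were 1.73% lower, 3.40% higher and 3.86% below the range. DESeq2 called 8 lower. Nr0b2, the small heterodimer partner that represses bile acid synthesis, measured 1.24 and 1.42 FPKM against 3.29 to 54.0 FPKM with a median of 21.1 FPKM (log2 fold change -4.06 ± 0.97, edgeR adjusted p = 0.0103). Prox1, a homeobox factor of hepatocytes, measured 2.06 and 2.1 FPKM against 4.20 to 21.6 FPKM (-2.19 ± 0.61, adjusted p = 0.0304). Ppara, the nuclear receptor that turns on fatty acid oxidation, measured 6.56 and 7.59 FPKM against 8.30 to 49.3 FPKM with a median of 22.4 FPKM (-2.25 ± 0.54, adjusted p = 0.0116). Tbx3 was another of the lower factors. The core factors Hnf4a (149 and 151 FPKM within 75.1 to 163 FPKM) and Cebpa (84.1 and 82.7 FPKM within 41.6 to 142 FPKM) stayed inside the range and did not pass.

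Pathways that these factors control were read next. Of 14 genes of bile acid synthesis and its regulation, 2 were lower, against 1.73% of all genes. They were Nr0b2, the repressor already counted among the factors, and Amacr, a racemase of side chain shortening. Amacr measured 29.6 and 27.6 FPKM against 34.2 to 80.4 FPKM (log2 fold change -0.82 ± 0.23, edgeR adjusted p = 0.0277). Cyp7a1, the rate-limiting enzyme, measured 3.48 and 2.46 FPKM against 3.67 to 137 FPKM with a median of 22.5 FPKM, just below the range, but it varied so much among lines that it did not pass (-3.23 ± 1.47, adjusted p = 0.233). Of 25 genes of fatty acid oxidation and ketogenesis, 1 passed as lower, against 1.73% of all genes. It was Ppara, already counted among the factors. Of the 25 genes, 24 had a negative log2 fold change, with a median of -0.39. Over all genes tested the median was -0.08, and 4907 of 11284 had a positive log2 fold change. Among the other genes far below the range, Ppp1r3b, which brings protein phosphatase 1 to glycogen, measured 4.09 and 2.55 FPKM against 11.2 to 72.9 FPKM (-3.38 ± 0.84, adjusted p = 0.0144), and Pdp2, the phosphatase that activates pyruvate dehydrogenase, 1.36 and 0.81 FPKM against 3.16 to 9.03 FPKM (-2.31 ± 0.39, adjusted p = 0.000326). Kank1, a regulator of actin and adhesion, measured 0.96 and 0.90 FPKM against 2.48 to 16.1 FPKM (-3.34 ± 0.70, adjusted p = 0.00337), and Cxxc5, a zinc finger protein that binds Dishevelled of the Wnt pathway, 3.00 and 2.46 FPKM against 6.27 to 18.4 FPKM (-2.04 ± 0.37, adjusted p = 0.000637). BC031353, the annotated pseudogene 5830417I10Rik and the ion exchanger Slc24a6 complete the 12 with the largest gap, with log2 fold changes between -4 and -2.30, and all 3 passed.

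**Figure D2:**
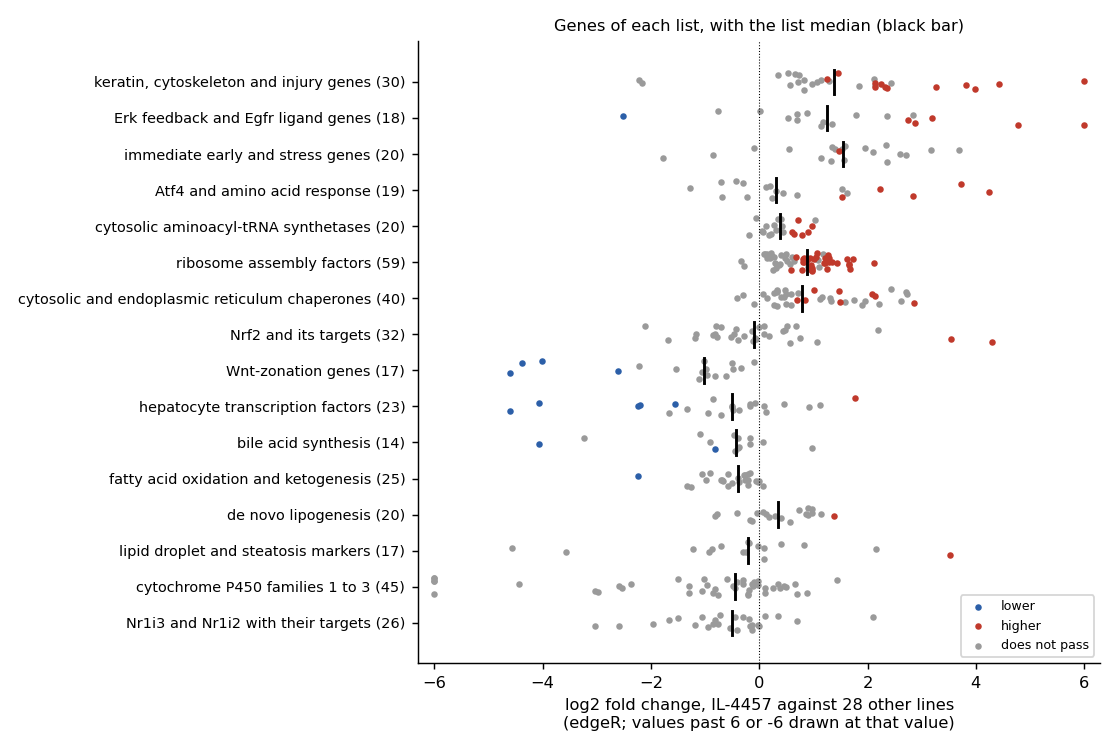
Log2 fold change of IL-4457 against the other 28 lines (x axis, edgeR on line sums) for each gene of 16 lists, with the number tested in brackets, the list median as a black bar and the genes that passed in red (higher) or blue (lower); values past 6 or -6 are drawn at that value. The ribosome assembly genes lie mostly right of 0 with a median of 0.88, and the 17 Wnt-zonation genes all lie left of it with a median of -1.02.

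Since IL-4457 was the heaviest line, genes of fat and glucose metabolism were described as groups. Of 20 genes of de novo lipogenesis 1 was higher: Acly, which makes cytosolic acetyl-CoA, measured 153 and 109 FPKM, partly inside the 25.2 to 139 FPKM of the others (log2 fold change 1.39 ± 0.39, edgeR adjusted p = 0.0347, lost under 4 alternatives). Of 17 genes of lipid droplets and steatosis 1 was higher: Cidec, which fuses lipid droplets and is low in lean liver, measured 10.3 and 13.1 FPKM against 0.13 to 10.2 FPKM with a median of 0.46 FPKM (3.52 ± 0.94, adjusted p = 0.023). The highest other mouse, from IL-1052, came close to the lower IL-4457 mouse. DESeq2 gave Cidec no adjusted p and called 0 of the list higher and 1 lower, G0s2. That gene, an inhibitor of fat breakdown, measured 1.70 and 0.73 FPKM against 2.13 to 165 FPKM, below the range, and Plin5, a droplet coat protein, was below the range with 4.84 and 4.43 FPKM against 5.23 to 26.9 FPKM, neither of which passed with edgeR (adjusted p = 0.147 and 0.265). None of 21 genes of cholesterol synthesis and uptake was called by edgeR or DESeq2 or fell under an unadjusted p of 0.05. Of 17 genes of gluconeogenesis and insulin response none was called by edgeR (4 under an unadjusted p of 0.05, and 2 called lower by DESeq2), and Insr, the insulin receptor, was below the range with 7.87 and 7.84 FPKM against 8.53 to 21.0 FPKM (adjusted p = 0.173). Of 15 genes of the leptin, growth hormone and Igf axis 1 was lower, Stat5a, which carries the growth hormone signal, with 0.50 and 0.66 FPKM against 1.16 to 4.61 FPKM (-2.07 ± 0.57, adjusted p = 0.0285). Its exons overlap those of Stat3 on the other strand, and strand was not stated to be used in the counting.

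The slope of each gene on the mean body weight of the line was fitted in the other 28 lines (edgeR's quasi-likelihood test, Benjamini-Hochberg adjustment), and 12 genes (0.106%) rose and 25 genes (0.222%) fell with weight at an adjusted p under 0.05. Many of these genes had a median of 0 FPKM in the other mice, such as Rpl21-ps15 with a highest value of 262 FPKM. Xist, high in an IL-785 mouse, was among the falling genes, with a slope of -7.47 log2 per 10 g. None of the 817 genes outside the range in IL-4457 was among the genes called for weight. A gene at 0 FPKM in some other mouse cannot lie below the range, however. The 817 genes were chosen against the range of these same mice, and a gene that varies little among them is more easily outside their range, so the slopes of the 817 are given as a description and say nothing of the part of body weight, which was not tested. At an unadjusted p under 0.05 there were 25 of the 817 (3.06%), against 917 of the 11284 genes tested (8.13%). With age added to the fit there were 56 (6.85%), against 893 (7.91%), and with limma, which called 0 genes, 20 (2.45%) against 641 (5.68%). The median slope of the genes above the range was -0.009 log2 per 10 g, and that of all genes -0.010. The number of rising genes rested on single lines, with 56 without IL-785, the lightest line, and 3 without IL-2156. For Srxn1, Krt8 and Tbx3 the slopes were -0.54, -0.20 and 0.09 log2 per 10 g, each with an adjusted p above 0.8. The heaviest of the other line means, 30.3 g, was below the mean of IL-4457, so the slopes were not measured at its weight.

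**Figure D3:**
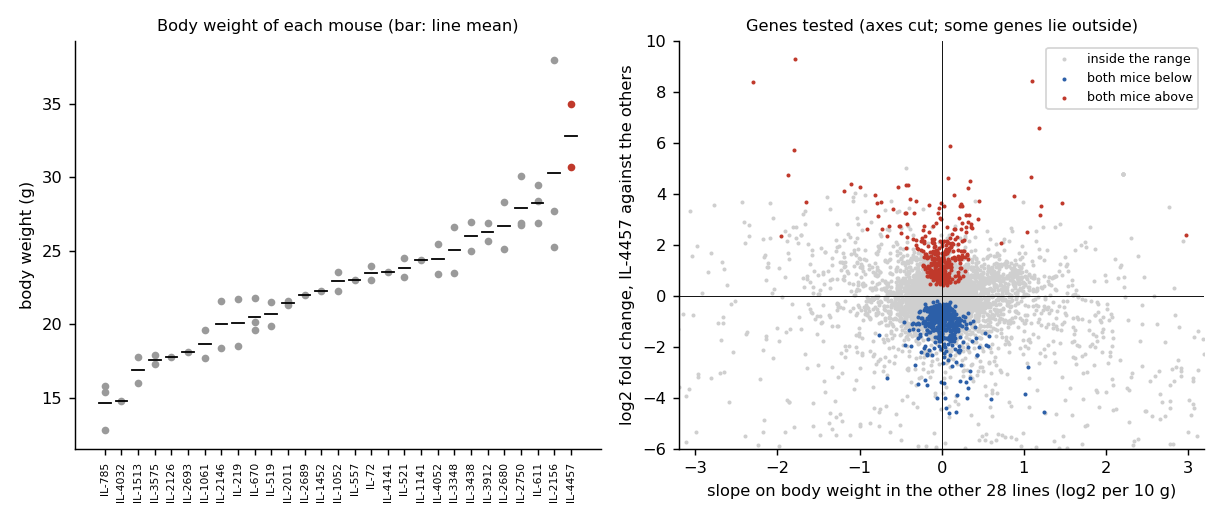
Left, body weight in g of each mouse by line, ordered by line mean (bars), with IL-4457 in red at 35.0 and 30.7 g. Right, for each gene tested, the log2 fold change of IL-4457 against the other lines (y axis) and the slope on body weight among the other 28 lines in log2 per 10 g (x axis): the genes outside the range in IL-4457, in red and blue, lie on both sides of a slope of 0.

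Drug disposition genes were the subject of the study. None of 45 cytochrome P450 genes of families 1 to 3 was called by edgeR (1 lower at an unadjusted p under 0.05, and 2 called lower by DESeq2), with a median log2 fold change of -0.44. Of 52 conjugation enzymes 1 was higher, Ugt2b37, a UDP-glucuronosyltransferase, with 35.2 and 62.1 FPKM against 0.19 to 24.5 FPKM with a median of 1.43 FPKM (log2 fold change 3.97 ± 1.05, edgeR adjusted p = 0.0223). It belongs to a family of near-identical genes, and the call was lost with DESeq2 and without IL-4457 mouse 2. In the same list 0 genes were lower with edgeR, 2 at an unadjusted p under 0.05, and DESeq2 called 3 lower. Abcb11, the bile salt export pump, was below the range with 61.2 and 69.0 FPKM against 70.3 to 186 FPKM and did not pass (adjusted p = 0.274), and of 23 transporters none was called by edgeR or DESeq2, with 3 lower at an unadjusted p under 0.05.

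Nr1i3 (CAR), a nuclear receptor that turns on drug metabolism genes, measured 13.4 and 19.8 FPKM within 13.1 to 104 FPKM (median 40.4 FPKM), near the bottom of the range, and Nr1i2 (PXR) 7.42 and 9.6 FPKM against 9.25 to 30.6 FPKM, with 1 mouse below the range. Their log2 fold changes were -1.66 ± 0.64 and -0.95 ± 0.31 with edgeR adjusted p-values of 0.145 and 0.0682, and both passed with DESeq2. None of the 26 genes made up of these receptors and their targets passed with edgeR, and 2 had an unadjusted p under 0.05. Without the IL-2126 mouse, and without IL-4457 mouse 2, 1 was lower. Cyp2b10, a target of Nr1i3, measured 1.71 and 1.63 FPKM within 0.07 to 71.4 FPKM. The isoforms of Nr1i3 did differ: ENSMUST00000005820 made up 62.3 and 52.7% of its expression against 0 to 52.1% in the others (median 26.5%), while ENSMUST00000155126 made up 12.6 and 13% against 17.9 to 45.0%, and ENSMUST00000152865 1.48 and 0.81% against 1.97 to 17.9%. These shares rest on 623 and 979 fragments of the gene, and exons of Nr1i3 overlap those of Tomm40l on the other strand.

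Isoform shares, in percent of a gene's expression as RSEM estimates them, gave a readout that the choice of genes did not use. Of 28288 isoforms of genes with at least 2 FPKM in every mouse, 207 (0.732%) had both IL-4457 mice outside the range of the other mice, 127 above and 80 below, in 164 genes. In 138 of these genes the level of the gene itself was inside the range. Most of the gaps were small, and 25 isoforms lay outside by at least 5 percentage points. The largest was in Wibg, a factor that recycles the exon junction complex, where ENSMUST00000065210 made up 72.8 and 73.2% against 0 to 26.0% with a median of 4.46%. In Foxo3, a forkhead factor held back by insulin signalling, ENSMUST00000105501 made up 52.7 and 53.3% against 0 to 29.5%, and in Gcnt2, which branches blood group chains, ENSMUST00000067778 made up 46.6 and 60.8% against 0 to 16.7%. Gcnt2 was above the range by level too, as was Psph, where ENSMUST00000120496 made up 85.7 and 89.0% against 0 to 66.9%. The fragments behind these genes numbered 115 for Wibg and 617 for Psph in mouse 1, and at least 73.0 in each gene counted here, and isoform shares carry the uncertainty of reads that fit several isoforms. No test was made of them.

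**Figure D4:**
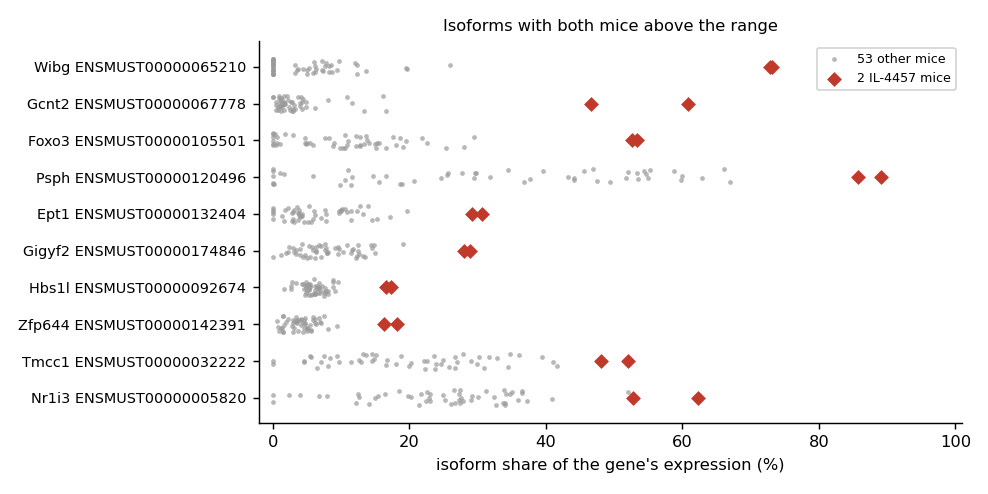
Share of a gene's expression in percent (x axis) of 10 isoforms with both IL-4457 mice above the range, in each of the 53 other mice (grey dots) and in the 2 IL-4457 mice (red diamonds). The diamonds of Wibg ENSMUST00000065210 lie at 72.8 and 73.2%, while no other mouse passes 26.0%.

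The same count of genes outside the range was made for each line in turn, as a measure of how far lines stand apart. Among the 16 lines with 2 mice, IL-4457 with 817 genes came after IL-2146 with 943 (389 above and 554 below), and before IL-1513 with 270. Among the lines with 1 mouse, for which the rule is easier to meet, the IL-2126 mouse had 1354 genes outside, and the IL-4141 mouse 500. The mouse nearest to IL-4457 was most often one of these: for the genes above, the nearest other mouse was that of IL-2126 for 91 and that of IL-4141 for 63, and for the genes below, that of IL-4141 for 137 and that of IL-2126 for 53. Without the IL-4141 mouse, 404 genes lay above and 571 below, and without the IL-2126 mouse 471 and 483. Without IL-785 the counts were 389 and 461, and without IL-1052 and IL-2750 they were 385 and 483.

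**Figure D5:**
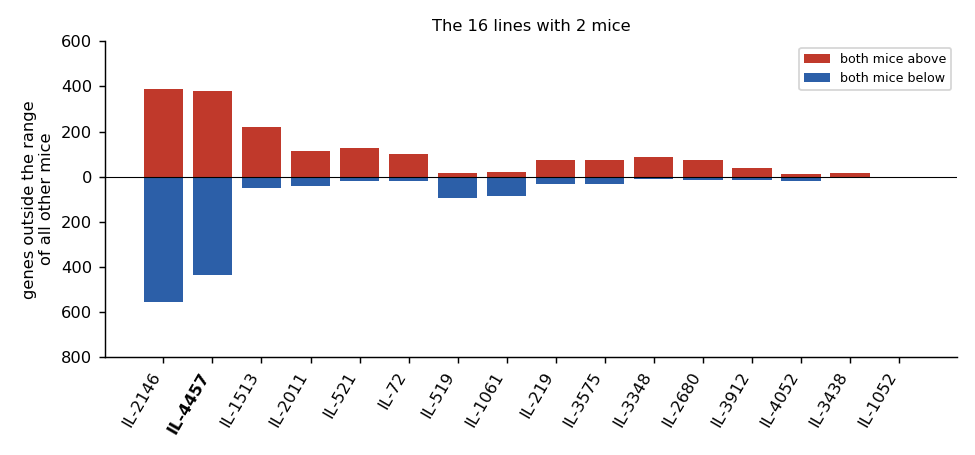
Number of genes with both mice above (red, upward) or below (blue, downward) the range of all other mice, for each of the 16 lines with 2 mice. IL-4457, with 382 above and 435 below, is second to IL-2146, with 389 and 554.

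Of the 817 genes, 567 (69.4%) had another such gene within 1 Mb, against 67% for the 943 genes of IL-2146. This share went with the number of genes outside, at 78.8% for the 1354 genes of IL-2126 and 33.3% for the 270 genes of IL-1513. Whether the genes lie closer together than their number alone would give was not tested. The longest run on NCBI build 37, at chr12:84887891-89700163, held 11 of 49 genes tested, 5 above and 6 below, with Tgfb3 and Jdp2 above. A run at chr2:151931252-154718671 held 8 of 31 genes tested, 7 of them above, from Srxn1 to the survival factor Bcl2l1 and the translation factor subunit Eif2s2. A run at chr19:3851773-7114516 held 11 of 103, with Fosl1, the NF-kB subunit Rela and the cochaperone Stip1 above. Over all genes tested, 3.39% lay above and 3.86% below the range. Each of these runs held genes on both sides of the range, and genotypes were not used here.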

How the data were processed

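Liver RNA of 55 male CC mice was sequenced as paired reads of 50 bases. Per the submitters' processing notes and the study's methods, the authors aligned the reads to the mouse transcriptome (NCBI build 37, Ensembl 67) with Bowtie 2 2.1.0 and estimated levels with RSEM 1.2.18. For each mouse they deposited expected counts, TPM and FPKM of 37620 genes, and the same with the percent share of each gene's expression for 97251 isoforms. Expected counts are RSEM estimates in which reads that fit several genes are divided, and 9.49 to 12.9% of the genes of a mouse had a count that was not whole. Of the gene identifiers, 37205 were matched to an annotation of the same build (GENCODE M 1, Ensembl 65) for positions, and 415 were not.

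Genes with at least 2 FPKM in any mouse were kept. A gene was taken as outside the range where both IL-4457 mice lay above the highest or below the lowest of the 53 other mice on FPKM. The members and gene lists were chosen with earlier results of these data known, and 10 lists (Atf4, Nrf2, keratin, Erk, Wnt, transcription factors, tRNA synthetases, ribosome assembly, chaperones, Tgfb) were written after gene values had been seen. For the test, expected counts were summed over the mice of a line, and the sums were rounded to whole numbers and scaled by TMM. They were fitted with edgeR 4.0.16 (robust quasi-likelihood, R 4.3.3), 1 line against 28, with Benjamini-Hochberg adjustment and a threshold of 0.05. The same fit gave the slope on body weight in the other lines. Since the labels do not say whether line mates are separate in litter or cage, p-values measure only the spread between these samples. Between the IL-4457 mice the counts differed by more than sampling noise (chi-square per degree of freedom 136, other line mates 13.4 to 704), so they were kept as 2 mice. No covariate entered the main fit.

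Named genes were the 12 above and the 12 below with the largest gap on log2(FPKM + 0.5), up to 4 genes per list outside the range or past the test (otherwise 2), Nr1i3 with its isoforms and targets, and runs of at least 3 genes within 1 Mb. Other members of a list named beside these, among them Krt8, Krt18, Lyve1, Egfr, Jun, Fos, Atf3, Ctnnb1, Asns, Trib3, Hnf4a and Cebpa, were chosen after their values were seen. Some genes that the rule names are not reported here. Alternatives were DESeq2 1.42.0, limma 3.58.1 on log2(FPKM + 1) and log2(FPKM + 0.1), other scalings and filters, mice in place of lines, and fits that left out a line or mouse; those of the list counts, and counts without the genes that pass the filter only through IL-4457, were added after seeing the data. The code was tested on simulated data. Python 3.11.15, pandas 2.3.3, scipy 1.17.1 and matplotlib 3.10.9 were used. Depth was 20.5 to 34 M fragments (megafragments) per mouse, so that genes near 1 FPKM rest on few fragments.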

Additional observations from a re-analysis of the deposited data

How the results depend on the processing

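The 384 higher and 195 lower genes became 406 and 549 with DESeq2, 242 and 237 with limma on log2(FPKM + 0.1), 614 and 405 without the lines of 1 mouse, and 2553 and 2399 with single mice and a term for each line, a fit that takes its spread from line mates. Leaving out each other line in turn gave 356 to 520 higher and 165 to 320 lower genes, with 520 and 293 without IL-2126 and 511 and 320 without IL-4141. Leaving out an IL-4457 mouse gave 288 and 497 higher and 158 and 308 lower genes. The share of calls that were higher was 66.3% in the main test, 42.5% with DESeq2, 50.5% with limma on log2(FPKM + 0.1) and 51.6% with single mice. The median log2 fold change of all genes was -0.08, -0.14 with upper quartile scaling and -0.28 over all genes with a count, a shift relative to which changes are to be read.

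The 382 genes above and 435 below the range became 87 and 22 with a 1.5-fold margin and 692 and 1056 over line means. They became 559 and 400 on CPM, which is 58.3% above in place of 46.8%. Without IL-4457 mouse 1 they were 593 and 768, without mouse 2 they were 420 and 628, and without each other line in turn 382 to 471 and 435 to 571. The 12 genes rising with weight became 6 with age added, 0 with limma, 3 without IL-2156 and 56 without IL-785, and the 25 falling became 0 with limma. The 207 isoform shares became 129 at 5 FPKM or more in every mouse, 25 with a margin of 5 percentage points, and 758 and 765 with 1 IL-4457 mouse. The weight difference of 10.6 g was 8.49 or 12.8 g with 1 IL-4457 mouse.

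Of the 59 named genes that passed the test, 44 did so in every alternative that tested them, 12 passed the filter on low levels only through IL-4457, and 5 (Cidec, Dusp5, Ppl, Srxn1, Tnfrsf12a) had no adjusted p with DESeq2. With the filter on the other lines alone, 47 of the 59 were tested and 47 passed. The 44 thus hold genes, such as Sprr1a and Psat1, that this alternative dropped and that had to differ, so 44 of 59 overstates how stable the calls are. Actg-ps1, Dusp4, Fosl1, Serpinh1 and Ugt2b37 were lost with DESeq2, and Acly, Gar1, Hspa5, Irgm1 and Rars with limma on log2(FPKM + 1). Cyp2b13, of an uncertain family of near-identical genes, had a log2 fold change of -3.03 that turned to 3.37 with single mice. Where no reason is named, the cause was not tested. No paired analysis was possible because IL-4457 is 1 line and what its mouse numbers stand for is not given. Whether its mice shared a batch with mice of other lines is therefore not known. Genes near 1 FPKM, such as Axin2 and Tbx3, rest on few fragments.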

Other observations

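Several groups of genes that the liver is known to change under infection, by time of day or between the sexes were read as well. Of 26 interferon-stimulated genes tested, 1 was higher in IL-4457, Irgm1, a GTPase against intracellular bacteria, with 49.7 and 123 FPKM against 13.8 to 70.1 FPKM (log2 fold change 1.57 ± 0.40, edgeR adjusted p = 0.017), so that 1 of the mice lay inside the range of the others, and the call was lost without the other one. The list had 2 higher genes without IL-2126, and DESeq2 called 1 lower. Its median log2 fold change was 0.92. Of 24 MHC genes none was called by edgeR or DESeq2, 4 had an unadjusted p under 0.05, and the median was 0.61. Without IL-4457 mouse 1 edgeR called 2 of them higher, and 1 without IL-2126, without IL-4141 or without IL-1052 and IL-2750. None of 25 acute phase genes was called by edgeR or had an unadjusted p under 0.05 (median -0.43).

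Of 15 circadian clock genes none was called by edgeR, and 2 had an unadjusted p under 0.05. Without IL-2126, and without IL-4457 mouse 1, 1 was higher. Cry2, a repressor of the clock, was above the range with 10.3 and 10.6 FPKM against 4.32 to 10.2 FPKM (adjusted p = 0.0714), and Hlf, a clock output factor, was below it with 4.35 and 4.61 FPKM against 5.73 to 15.4 FPKM (adjusted p = 0.189). None of 23 nuclear-encoded genes of the respiratory chain and none of 13 mitochondrially encoded genes was called by edgeR or had an unadjusted p under 0.05, with medians of 0.04 and 0.01. None of 16 male-biased and 19 female-biased liver genes was called by edgeR, with 1 and 0 under an unadjusted p of 0.05, while DESeq2 called 3 of the female-biased genes lower. Ddx3y, a gene of the Y chromosome, was just above the range with 19.0 and 18.2 FPKM against 5.49 to 18.1 FPKM and did not pass (adjusted p = 0.27).

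The sums of markers of tissues that could be carried along in dissection were inside the range of the other mice: adipocyte markers 23.7 and 32.9 FPKM (others 2.01 to 228 FPKM), pancreas markers 32.3 and 28.4 FPKM (others 1.24 to 535 FPKM), muscle markers 0.49 and 0.70 FPKM (others 0.26 to 1431 FPKM) and erythroid markers 2894 and 1375 FPKM (others 446 to 4528 FPKM). A long run of genes outside the range on chromosome 5 (chr5:122110572-125941242, NCBI build 37) held 11 of 57 genes tested, 9 of them below, and 89 runs of at least 3 genes were found in all. The number of runs to be found by the density of such genes alone was not worked out.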
